A study of Homo sapiens with 414 samples.

Results

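Among LNCaP cells transfected with an siRNA against SULT2B1, some had reads of RSAD2 although they had no read of an interferon gene. LNCaP is an established epithelial line from a human prostate carcinoma. The cells were chosen by their reads of RSAD2 and of 4 interferon genes. The RSAD2-positive cells were the knockdown cells with 0 reads of IFNB1, IFNL1, IFNL2 and IFNL3 and 1 or more RSAD2 reads; the RSAD2-negative cells had 0 reads of all of these genes. The rule found 27 RSAD2-positive cells (12, 6 and 9 in batches 1, 2 and 3) and 111 RSAD2-negative cells (35, 51 and 25). These 138 cells are called non-producing knockdown cells, out of 192 knockdown cells and 401 cells in all. The other 54 knockdown cells had an interferon read and are called producing cells, and 209 control cells (76, 66 and 67) received a non-targeting siRNA.

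Both siRNAs were given for 48 hours to the same line, the knockdown one from IDT and the control one from Dharmacon, so target and supplier cannot be told apart between the arms. The RSAD2-positive and RSAD2-negative cells, by contrast, shared the siRNA, the arm and the batch. Single cells were captured and amplified on a Fluidigm C1 plate and sequenced without molecular identifiers. Reads were summed over the cells of each group and batch, which gave 3 libraries a group, and levels are given as CPM, the reads of a gene scaled to a common total per library or per cell. Nothing in the labels says whether the batches were separate cultures, so a p-value here reflects only how far the batches differed, which may be technical.

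RSAD2 encodes viperin, an antiviral enzyme that makes a chain-terminating nucleotide. Its transcription is known to start by more than one route. Interferon acts on neighbouring cells through the JAK-STAT pathway and the transcription factor complex ISGF3, while sensing of foreign RNA inside a cell activates IRF3, which can switch on RSAD2, the IFIT genes and OASL without secreted interferon. IFIT proteins bind viral RNA, OASL helps the RNA sensor RIG-I, and the ISG15 system attaches a ubiquitin-like protein to newly made proteins.

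The RSAD2 reads that chose the cells were few in most of them. In batch 1, 6 positive cells had 1 read and the others had 3, 7, 12, 47, 82 and 411. In batch 2 the positive cells had 1, 2, 5, 10, 13 and 122 reads. In batch 3, 5 cells had 1 read, 2 had 2 reads, and the last had 45 and 235. Cells just inside the rule thus had 1 read, in 12 of the 27 cells, and cells just outside had 0. In each batch a single cell held most of the RSAD2 reads: 72.4%, 79.7% and 81.3%. Among non-producing knockdown cells 25.5%, 10.5% and 26.5% were RSAD2-positive in batches 1, 2 and 3 (95% Clopper-Pearson intervals 13.9 to 40.3%, 3.96 to 21.5% and 12.9 to 44.4%). Of the producing cells, 29 of 54 had an RSAD2 read (53.7%, 39.6 to 67.4%). No control cell of 209 had one, which allows a share of up to 1.44%. These intervals and limits cover counting error only. Producing cells held 93.1% of all RSAD2 reads of the knockdown cells.

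The positive libraries were the shallower ones, with 6465276 to 15372108 reads against 32227543 to 58341594 in the negative libraries, since they held fewer cells. Per cell, the 138 cells had 525321 to 2109867 reads. The batch medians averaged 1269120 ± 273615 reads in RSAD2-positive cells and 1225443 ± 116051 in RSAD2-negative cells (SD, n = 3 batches; exact permutation test, two-sided, p = 0.90). Genes with a read averaged 8653 ± 472 in RSAD2-positive cells and 8822 ± 131 in RSAD2-negative cells (n = 3; exact permutation p = 0.80). The mitochondrial share of reads averaged 6.54 ± 1.26% in RSAD2-positive cells and 6.74 ± 0.692% in RSAD2-negative cells (n = 3; exact permutation p = 0.90). The smallest p this test can give with 3 against 3 is 0.10, and it regrouped the values across batches. With the groups exchanged only within batches, the exact permutation p was 0.75 for reads and larger for genes and mitochondrial share. SULT2B1, the sterol sulfotransferase that was targeted, had 0 reads in the 27 RSAD2-positive cells and a read in 3 of 111 RSAD2-negative cells and 43 of 209 control cells. Luminal prostate markers summed to 2867 to 3921 CPM in RSAD2-positive libraries, 3033 to 4545 CPM in RSAD2-negative libraries and 4594 to 6101 CPM in control libraries, with none of the 9 genes at 0. Basal markers summed to at most 0.130 CPM in positive and 2.27 CPM in negative libraries, and neuroendocrine markers to at most 0.846 and 2.45 CPM. Markers of blood, endothelial and mesenchymal cells summed to 1.24 to 7.68 CPM in positive and 7.20 to 11.9 CPM in negative libraries, with 8 and 5 of their 14 genes at 0.

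The promoters of several of these genes carry the interferon-stimulated response element, the DNA motif that ISGF3 and the IRF factors bind, and its sequences are shown here because RSAD2 chose the cells and several genes described with it hold the motif. The 250 bases before each gene's start in RefSeq (GRCh38.p14) were searched for GAAANNGAAA and its reverse complement TTTCNNTTTC, with overlapping matches counted. Capitals mark the match in 30 bases of the gene's own strand, and positions count back from the start site.
RSAD2, 145 to 136 bases before the start, chr2:6877622-6877651: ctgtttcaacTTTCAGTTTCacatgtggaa
IFIT3, 94 to 85 bases before, chr10:89332425-89332454: acagattctgTTTCAGTTTCccctcaagag
IFIT1, 116 to 107 bases before, chr10:89392497-89392526: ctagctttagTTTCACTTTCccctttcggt
HERC5, 74 to 65 bases before, chr4:88457035-88457064: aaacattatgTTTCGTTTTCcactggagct
ISG15, 107 to 98 bases before, chr1:1013380-1013409: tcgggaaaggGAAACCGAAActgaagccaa
IFI6, 115 to 106 bases before, minus strand, chr1:27672288-27672317: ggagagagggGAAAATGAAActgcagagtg
IFITM1, 40 to 31 bases before, chr11:313990-314019: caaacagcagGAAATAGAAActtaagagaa
The windows of IFIT3, IFIT1, HERC5, ISG15 and IFI6 held more than 1 match (2, 2, 3, 2 and 3), and a second RSAD2 window upstream held none. The IFIT3 site shown is before a start that lies within the gene coordinates given below. Another IFIT3 window, upstream of it, also held 2 matches. IFI44 also had a match, and the windows of RIGI, ZC3HAV1 and BIRC3 held none of these letters. IFIT2 and OASL were not matched to a window. Of all 35116 promoter windows, 1061 (3.02%) held a match.

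Across the 15581 genes tested, edgeR's quasi-likelihood test with batch as a block and Benjamini-Hochberg adjustment called no gene higher (0%) and none lower (0%) in RSAD2-positive than in RSAD2-negative libraries at an adjusted p under 0.05. At an unadjusted p under 0.05 there were 669 genes (4.29%), 172 higher (1.1%) and 497 lower (3.19%). DESeq2, run as an alternative, called 178 genes (1.14%), 60 higher (0.385%) and 118 lower (0.757%). Libraries of the groups did not overlap for 511 genes higher (3.28%) and 1443 lower (9.26%) in the RSAD2-positive cells, whose libraries were shallower. The median log2 fold change over all genes tested was -0.19. Counts were also simulated with 1 common spread for all genes (edgeR's common dispersion, 0.671) and no batch effect. In these the edgeR test recovered 0 of 100 genes changed by 1 and 0 of 100 changed by 3 on the log2 scale. The spread of each gene was not simulated, so this does not give the power for a single gene. A gene that did not pass is still not shown to be alike in both groups.

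Among genes read in at least 3 positive cells of every batch, the 5 with the smallest p-values on the higher side were IFIT2, IFIT3, OASL, RIGI and HERC5. The noncoding gene TM4SF18-AS1, described further on, had a p-value in the same range but was read in 2 positive cells of batch 2. IFIT2 (chr10:89283694-89309276, plus strand) had 2651, 3207 and 1429 CPM in the RSAD2-positive libraries of batches 1, 2 and 3, against 92.5, 43.1 and 47.6 CPM in the RSAD2-negative and 6.57, 9.15 and 4.99 CPM in the control libraries. Every positive library lay above every negative one, and every negative one above every control one. The log2 fold change of IFIT2, RSAD2-positive over RSAD2-negative, was 5.36 ± 0.38 (SE; edgeR adjusted p = 0.141). The adjusted p of IFIT2 was 1 without batch 1, 0.0254 without batch 2, 0.31 without batch 3 and 0.999 without the cell richest in RSAD2 of each batch; DESeq2 gave 2.5e-46. With equal weight per cell (limma), the log2 fold change was 2.66 for IFIT2, 3.50 for OASL, 3.03 for IFIT3, 2.28 for IFIT1, 1.70 for RIGI and 2.47 for HERC5 (adjusted p = 0.817 for each), all smaller than with summed reads.

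IFIT3 (chr10:89327894-89340971) had 1425, 1371 and 320 CPM in RSAD2-positive libraries and 13.4, 45.6 and 22.9 CPM in RSAD2-negative libraries. IFIT1 (chr10:89392546-89406486), an IFIT that binds RNA lacking a complete cap, was chosen after its values were seen; it had 1044, 970 and 379 CPM in RSAD2-positive libraries and 55.5, 36.2 and 66.7 CPM in RSAD2-negative libraries. For both genes the groups did not overlap and batch 3 was the lowest positive library. Their log2 fold changes were 5.18 ± 0.65 for IFIT3 and 3.89 ± 0.52 for IFIT1, and neither passed (edgeR adjusted p = 1 for each). OASL (chr12:121019111-121039242, minus strand) had 1346, 1495 and 97.1 CPM in RSAD2-positive libraries, against 4.58, 1.94 and 0.559 CPM in RSAD2-negative libraries. Its log2 fold change of 8.51 ± 0.57 was the largest of the list and did not pass (edgeR adjusted p = 0.141). With every RSAD2-negative library under 5 CPM, OASL met the limit of 5 CPM on average through the RSAD2-positive libraries alone, which set its direction. IFIT5, the last member of the list of IFIT genes and OASL, stood apart from the others with a log2 fold change of 0.22 ± 0.60 and overlapping groups. Of these 5 genes 0 passed in edgeR, 4 were higher in DESeq2 (0.385% of all genes) and 4 did not overlap between the groups (3.28% of all genes); their median log2 fold change was 5.18, beside -0.19 over all genes. The IFIT genes are neighbours with related sequences, and reads could be split between them by the counting.

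**Figure D1:**
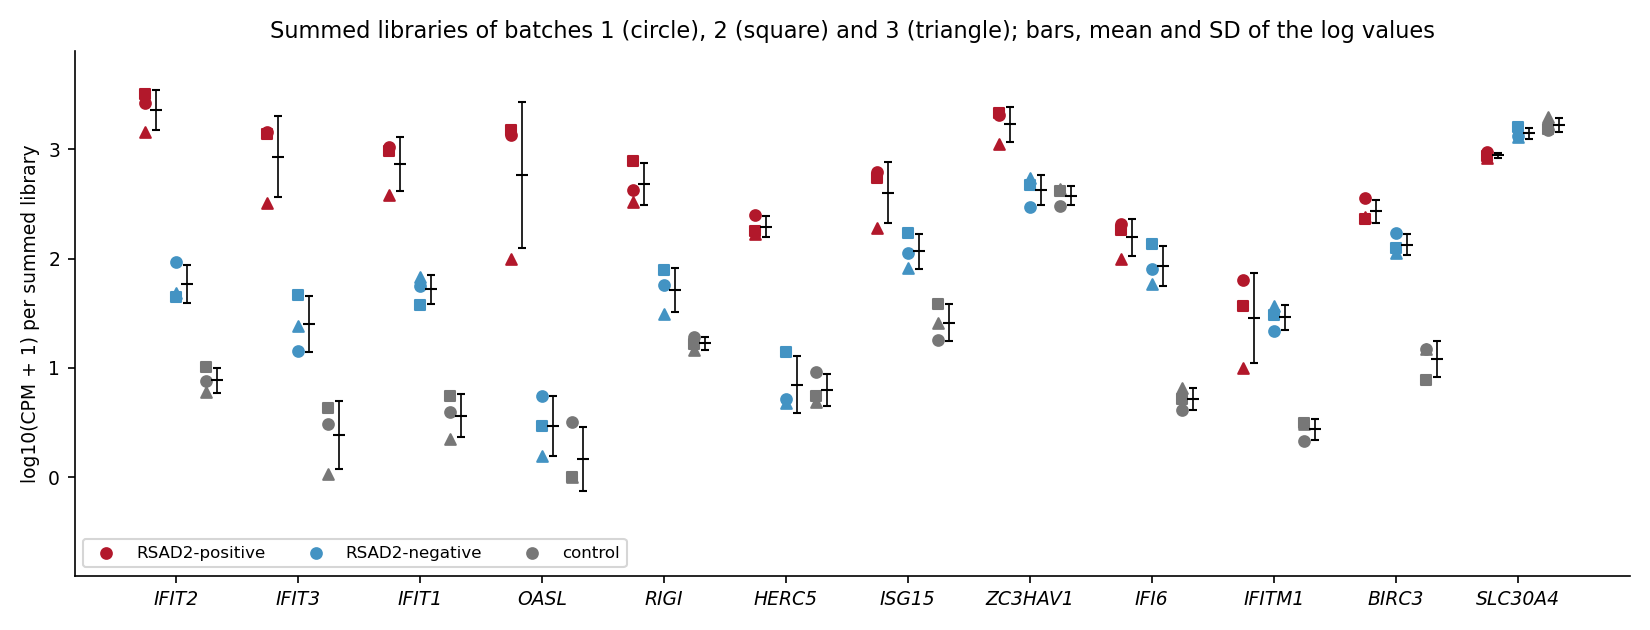
Levels of 12 genes, as log10(CPM + 1), in the summed libraries of RSAD2-positive, RSAD2-negative and control cells, 3 batches each; black bars give the mean and SD of the log values. IFIT2, IFIT3, IFIT1, OASL, RIGI, HERC5, ISG15 and ZC3HAV1 lie higher in each RSAD2-positive library than in each RSAD2-negative one, while those of IFI6 and IFITM1 overlap.

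RIGI (chr9:32455705-32526324, minus strand), the cytosolic sensor of RNA with an uncapped 5' end, had 425, 777 and 330 CPM in RSAD2-positive libraries, against 56.2, 77.0 and 30.01 CPM in RSAD2-negative libraries. Its log2 fold change was 3.28 ± 0.21 (edgeR adjusted p = 0.141). Without the cell richest in RSAD2 of each batch, the log2 fold change was 2.19 for RIGI and 3.11 for HERC5. In that setting it was 4.36 for IFIT2, 4.29 for IFIT3, 3.18 for IFIT1, 8.31 for OASL and 1.86 for ZC3HAV1. With all cells these 5 genes had 5.36, 5.18, 3.89, 8.51 and 2.05. Of 13 sensors and adaptors tested, 1 (RIGI) had an unadjusted p under 0.05 (1.1% of all genes on the higher side). Of the 13, 2 were higher without overlap (3.28% of all genes) and 7 had a log2 fold change above 0 (6055 of all 15581). Their median was 0.15. ADAR, which edits double-stranded RNA, had 230, 172 and 258 CPM in RSAD2-positive and 141, 169 and 121 CPM in RSAD2-negative libraries (log2 fold change 0.65 ± 0.26, edgeR adjusted p = 1).

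HERC5 (chr4:88457117-88506163), the ligase that attaches ISG15, had 249, 178 and 168 CPM in RSAD2-positive libraries and 4.14, 13.1 and 3.79 CPM in RSAD2-negative libraries. The control libraries, with 8.19, 4.55 and 3.85 CPM, overlapped the negative ones. Its log2 fold change, RSAD2-positive over RSAD2-negative, was 5.10 ± 0.55 (edgeR adjusted p = 0.781). ISG15 itself had 622, 541 and 191 CPM in RSAD2-positive libraries, 111, 171 and 80.3 CPM in RSAD2-negative libraries and 16.9, 37.3 and 24.7 CPM in control libraries. Its log2 fold change was 1.84 ± 0.27 (edgeR adjusted p = 1; DESeq2 9.2e-06). HERC5 and ISG15 were the members with an unadjusted p under 0.05 among the 6 ISG15 conjugation genes, whose median log2 fold change was 0.40. Over all genes, 1.1% were higher at that p.

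ZC3HAV1, the zinc-finger antiviral protein that binds CpG-rich RNA, had 2064, 2130 and 1108 CPM in RSAD2-positive libraries and 296, 472 and 544 CPM in RSAD2-negative libraries. Its negative libraries overlapped the control libraries, at 299, 413 and 429 CPM. It was the single member of 8 antiviral PARP family genes with an unadjusted p under 0.05 (1.1% of all genes were higher at that p). Its log2 fold change was 2.05 ± 0.36 (edgeR adjusted p = 1), and that of PARP9 of the same list was 0.10 ± 0.60. Of genes chosen after their values were seen, PLAAT4, a phospholipase, had a log2 fold change of 2.59 ± 0.51 and APOL2, an apolipoprotein L, one of 2.01 ± 0.26, both with groups that did not overlap and an edgeR adjusted p of 1. The long noncoding RNA gene TM4SF18-AS1 had 105, 61.6 and 68.5 CPM in RSAD2-positive and 0.9497, 0.343 and 0.465 CPM in RSAD2-negative libraries (log2 fold change 7.18 ± 0.55, edgeR adjusted p = 0.141). A single cell held 96.5% of the TM4SF18-AS1 reads of the batch 2 positive library, and a single cell 95.2% of those of batch 3. The strand setting of the counting is not given in the sources used here, so its reads cannot be told apart from those of genes on the other strand.

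The cells behind these differences were few. IFIT2 had 0, 45.7 and 15369 CPM in the lowest, median and highest of the 27 RSAD2-positive cells, against 0, 12.1 and 959 CPM in the 111 RSAD2-negative cells. It was above every RSAD2-negative cell in 7 positive cells: 3 of batch 1, 3 of batch 2 and 1 of batch 3. All 7 had 5 or more RSAD2 reads (5, 13, 47, 82, 122, 235 and 411), and no cell with 1 RSAD2 read was among them. IFIT3, HERC5 and OASL were above every negative cell in 7 positive cells each and IFIT1 in 6, all with 5 or more RSAD2 reads. RIGI was above every negative cell in 9 positive cells, of which 7 had 5 or more reads and 1 had 1 read. ZC3HAV1 and ZNFX1 (8 cells each) and IFI44 and APOL2 (6 each) likewise included 1 cell with 1 read.

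The read number did not order the cells throughout. Among the 11 cells with 5 or more RSAD2 reads, those with 7, 10 and 12 reads had 8.14, 4.53 and 74.8 CPM of IFIT2, within the range of the negative cells. The batch 3 cell with 45 reads had 633 CPM of IFIT2 and 699 CPM of OASL, yet 4.36 CPM of IFIT3. Of the 12 cells with 1 read, 1 in batch 1 had 607 CPM of IFIT2, 515 CPM of IFIT3 and 557 CPM of RIGI; the median of the 12 was 27.1 CPM of IFIT2 and 3.43 CPM of IFIT3. The batch 3 difference of IFIT2, IFIT3, IFIT1, HERC5 and RIGI rested on 1 cell. It held 92.0% of that library's IFIT2 reads and 97.2% of its IFIT3 reads. For IFIT1, HERC5 and RIGI it held 93.0%, 96.4% and 83.0%. That cell had 235 RSAD2 reads, 5197 genes with a read and a mitochondrial share of 28.9%. For OASL it was the cell with 45 RSAD2 reads that held 91.2% of the batch 3 positive reads. For ZC3HAV1 and ISG15 the top cell of batch 3 held 36.1% and 38.3%. Without cells over 20% mitochondrial reads (1 positive, 4 negative) the log2 fold change of IFIT2 was 4.31 and that of HERC5 3.61, against 5.36 and 5.10 with them. That of OASL was 8.56 without them and 8.51 with them.

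**Figure D2:**
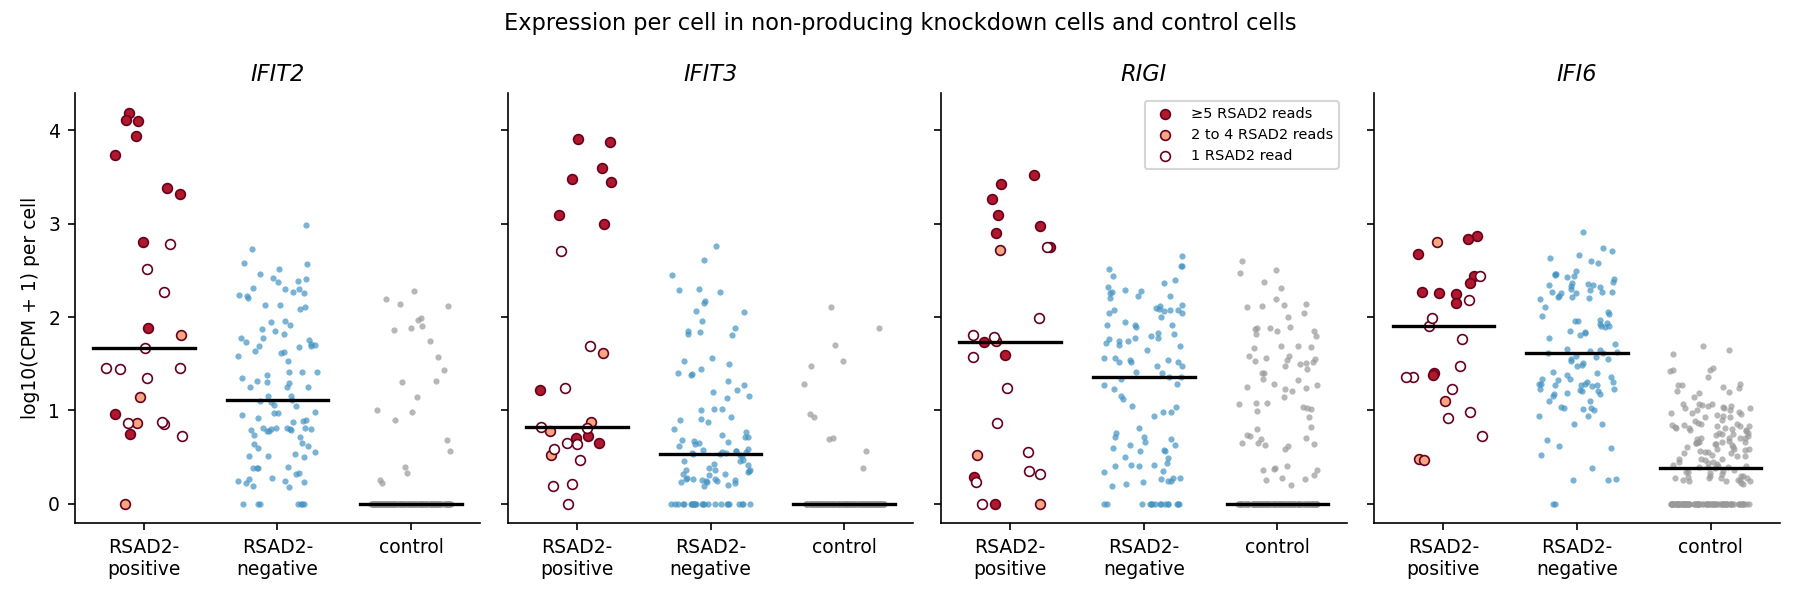
Levels per cell of IFIT2, IFIT3, RIGI and IFI6, as log10(CPM + 1), in RSAD2-positive, RSAD2-negative and control cells; colours give the number of RSAD2 reads and black lines the medians. For IFIT2 and IFIT3, 7 positive cells with 5 or more RSAD2 reads lie above all RSAD2-negative cells, and for IFI6 none does.

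With positive cells taken from 5 RSAD2 reads (5, 4 and 2 cells), edgeR called 3 genes, all higher than in RSAD2-negative libraries: OASL, IFIT2 and IFIT1, with log2 fold changes of 9.90, 6.81 and 5.29 and adjusted p-values of 0.00127, 0.00444 and 0.00347. As averages of batch medians, the mitochondrial share in these cells was 3.63 percentage points higher than in RSAD2-negative cells and 945 fewer genes had a read. Batch 3 gave 2 such cells, with mitochondrial shares of 5.31% and 28.9% and 9136 and 5197 genes with a read. The part of both differences in the calls was not tested. A definition chosen after seeing the data took only the 12 cells that had exactly 1 read (6, 1 and 5). It gave no called gene, against 767 at an unadjusted p under 0.05 (669 with all 27 positive cells). With exactly 1 read the log2 fold changes were -0.49 for IFIT2, -0.43 for IFIT3, -2.46 for IFIT1, -0.98 for RIGI, -0.86 for HERC5 and -0.79 for ISG15. Those of OASL (1.67), IFI44 (1.16) and ZC3HAV1 (0.37) stayed above 0, and none of the 9 passed (edgeR adjusted p = 0.998 for each). Medians per cell, over all batches, did not all go the way of these fits to summed reads. In the 12 cells and in RSAD2-negative cells they were 27.1 and 12.1 CPM for IFIT2 and 3.43 and 2.44 CPM for IFIT3. For IFIT1 they were 11.9 and 5.74 CPM, and for HERC5 0.903 and 0 CPM. For RIGI they were 11.4 and 21.8 CPM and for ISG15 72.1 and 92.4 CPM, lower in the 12 cells. The 2 definitions share the negative libraries, so their values are given side by side.

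**Figure D3:**
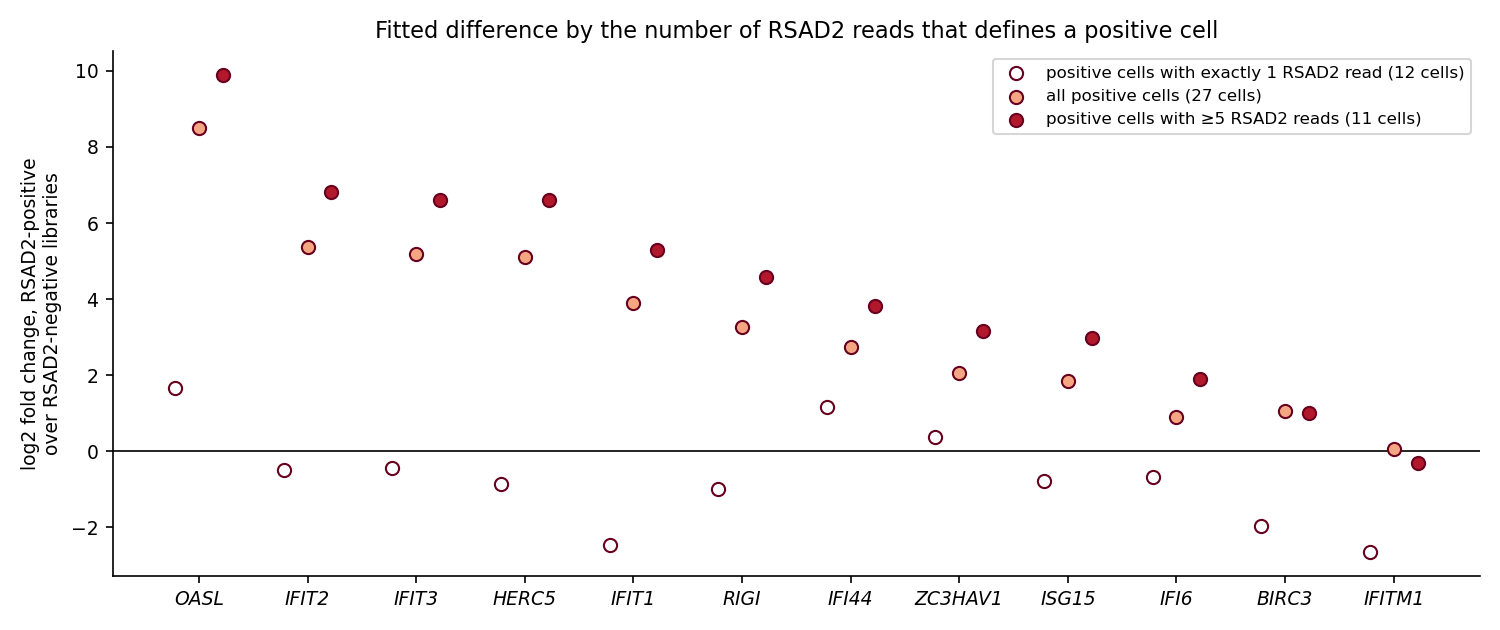
Fitted log2 fold change, RSAD2-positive over RSAD2-negative libraries, of 12 genes when positive cells are those with exactly 1 RSAD2 read, all 27, or those with 5 or more. IFIT2, IFIT3, IFIT1, RIGI, HERC5 and ISG15 lie below 0 with the 1-read cells and at 2.97 to 6.81 with the 5-read cells.

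Of 32 genes that depend on ISGF3, 0 passed in edgeR and 6 had an unadjusted p under 0.05, all higher in RSAD2-positive (1.1% of all genes were higher at that p). In DESeq2 5 were higher (0.385% of all genes), and 4 were higher without overlap (3.28% of all genes); the median log2 fold change was 1.09. The median of the differences in log2(CPM + 1) was 1.56, 0.90 and 0.03 in batches 1, 2 and 3, so batch 3 showed almost no difference. IFI44, a GTPase-like interferon gene, had 389, 322 and 125 CPM in RSAD2-positive and 37.0, 35.0 and 44.7 CPM in RSAD2-negative libraries (log2 fold change 2.75 ± 0.47, edgeR adjusted p = 1). IFI6, an interferon gene that counters apoptosis, had 207, 183 and 98.8 CPM in RSAD2-positive, 79.8, 134 and 56.9 CPM in RSAD2-negative and 3.12, 4.16 and 5.54 CPM in control libraries. Its positive and negative libraries overlapped, and both lay above all control libraries. IFITM1 and IFITM3, membrane proteins that block viral entry, had log2 fold changes of 0.05 ± 0.86 and 0.57 ± 0.27, OAS1 one of 1.16 ± 0.74 and MX1 one of 1.86 ± 0.76 (edgeR adjusted p = 1 for each). IFI6, IFITM1, OAS1 and MX1 were chosen after their values were seen.

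The interferon receptors and JAK-STAT genes had a median log2 fold change of -0.07 over 15 genes. At an unadjusted p under 0.05, 2 of them were higher and 2 lower (1.1% and 3.19% of all genes). STAT3 and STAT2, the most abundant of them, had log2 fold changes of 0.28 ± 0.32 and -0.07 ± 0.32. The guanylate-binding proteins GBP1 and GBP3 had log2 fold changes of 0.73 ± 0.49 and 2.50 ± 0.95, with a median of 0.73 over 3 genes. In the HLA class I and peptide loading list, 14 of 17 genes had a log2 fold change above 0 (6055 of 15581 over all genes) and the median was 0.63. At an unadjusted p under 0.05, 2 of the list were higher (1.1% of all genes). B2M, the invariant chain of HLA class I, had 2896, 2937 and 1113 CPM in RSAD2-positive and 1306, 1322 and 1106 CPM in RSAD2-negative libraries, so that batch 3 showed next to no difference (log2 fold change 0.82 ± 0.26, edgeR adjusted p = 1). PSME1, a proteasome activator subunit, had a log2 fold change of 0.27 ± 0.18. None of these passed (edgeR adjusted p = 1 for each gene named).

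Chemokines, which attract immune cells, were low in both groups. CXCL10, chosen after its values were seen, had 15.3, 0.309 and 0.946 CPM in RSAD2-positive libraries and 5.75, 5.81 and 6.33 CPM in RSAD2-negative libraries, so the groups overlapped. CXCL11 had 3.84, 72.9 and 0 CPM in RSAD2-positive and 5.26, 0.154 and 0.186 CPM in RSAD2-negative libraries, with 86.8% of the batch 2 positive reads in 1 cell. CCL5, also chosen later, had 10.6, 0.464 and 0.709 CPM in RSAD2-positive and 0.195, 0.240 and 0.372 CPM in RSAD2-negative libraries; its groups did not overlap, and 1 cell held 98.8% of the batch 1 reads. Its log2 fold change was 2.36 ± 1.79 (edgeR adjusted p = 1). The median over the 4 chemokines tested was 0.48, with CCL5 the 1 that did not overlap (3.28% of all genes were higher without overlap). In producing cells CXCL10 had 2111, 1531 and 2424 CPM and CCL5 162, 3261 and 772 CPM, while IFIT2 had 6112, 14834 and 4270 CPM. CXCL16, a membrane-bound chemokine, had a log2 fold change of 0.15 ± 0.61, RSAD2-positive over RSAD2-negative.

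In the NF-kB list, 11 of 18 genes had a log2 fold change above 0 (6055 of 15581 over all genes) and the median was 0.10. BIRC3, an inhibitor of apoptosis induced by NF-kB, had 357, 229 and 241 CPM in RSAD2-positive, 171, 123 and 112 CPM in RSAD2-negative and 13.9, 6.83 and 13.9 CPM in control libraries. Its groups did not overlap (log2 fold change 1.06 ± 0.18, edgeR adjusted p = 1), but its highest positive cell, with 2906 CPM, had 1 RSAD2 read. NFKBIA, the inhibitor that NF-kB induces, had a log2 fold change of 0.20 ± 0.26. In the death receptor and apoptosis list the median was -0.15 over 21 genes; PMAIP1 (NOXA) had a log2 fold change of 1.40 ± 0.50 and the TRAIL receptor TNFRSF10B one of 0.13 ± 0.25. The ligands of the killer-cell receptor NKG2D had a median of 0.11 over 6 genes, with RAET1L at 2.59 ± 2.49 and ULBP2 at -1.18 ± 0.83.

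**Figure D4:**
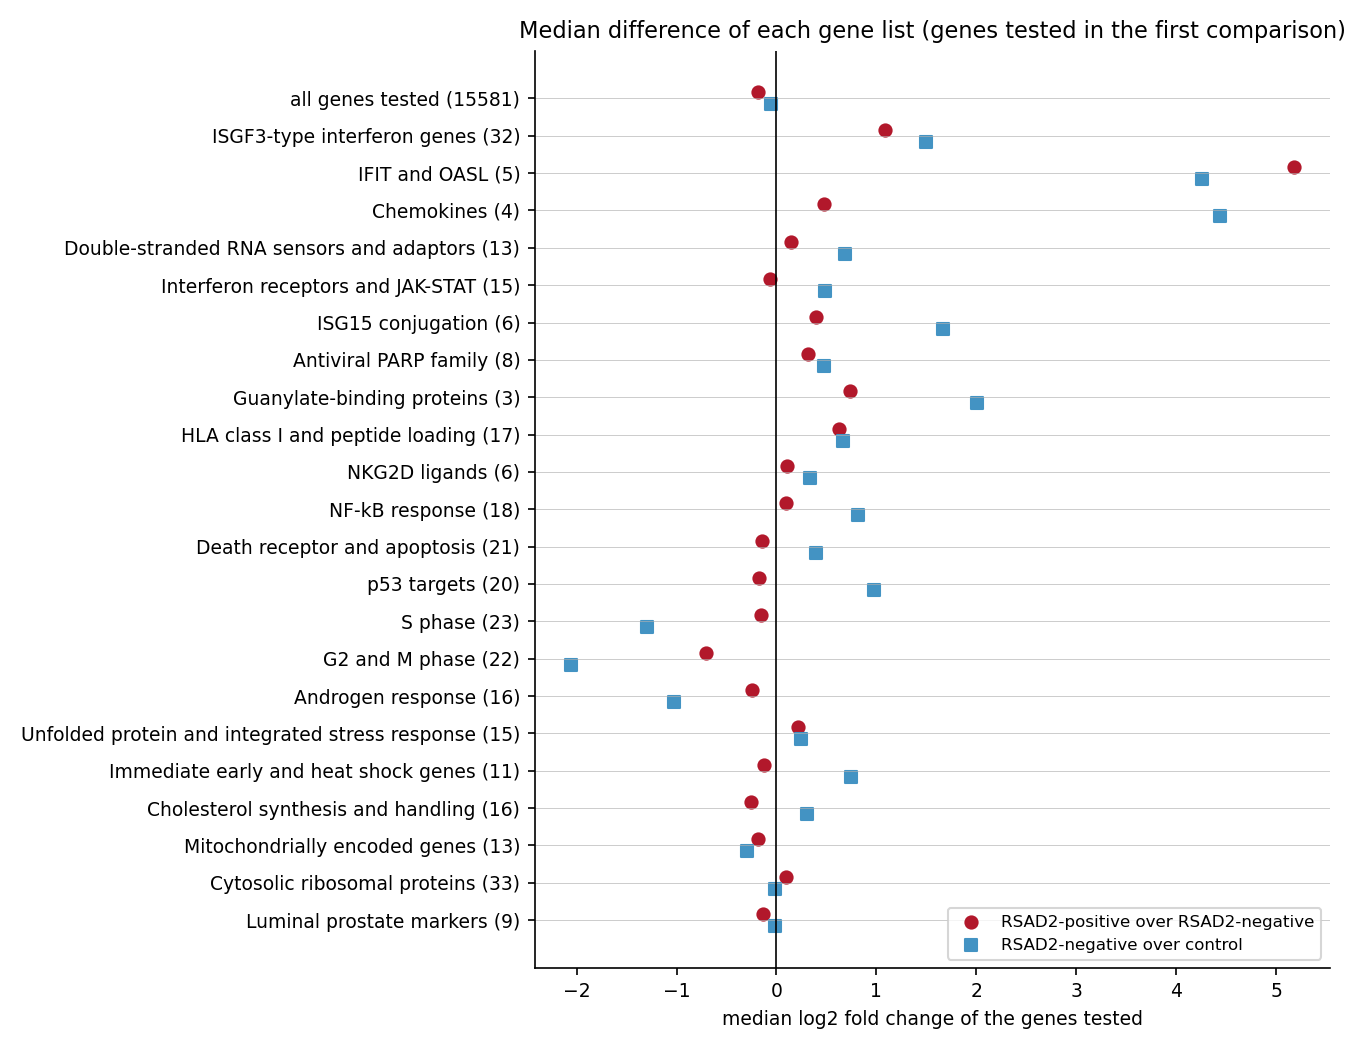
Median log2 fold change of the genes tested in each list, for RSAD2-positive over RSAD2-negative libraries (circles) and RSAD2-negative over control libraries (squares), which share the RSAD2-negative libraries; numbers in brackets are genes tested in the first comparison. The IFIT and OASL list stands at 5.18 and 4.26, the cell cycle lists at -0.15 and -0.70 in the first comparison and -1.30 and -2.06 in the second.

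The genes lower in RSAD2-positive libraries with the smallest p-values were of a different kind. RCBTB2, a regulator of chromosome condensation family gene, had 1 read in 1 of the 27 positive cells and 1931 reads in 15 of the 111 negative cells, a ratio of CPM of 0.00197 (95% counting interval 5.0e-05 to 0.0110). That interval takes amplified reads as independent, although 1 negative cell held 23.4% of them. SEMA6A-AS1 had 3 reads in 1 positive cell and 2337 reads in 38 negative cells, and ENSG00000276810, which has no name here, had 1 read in 1 positive and 1244 reads in 18 negative cells. These 3 genes were read in a minority of cells in either group and met the limits on level and cells through the RSAD2-negative libraries alone, so their direction was set by that choice. STK38, a kinase of the Hippo pathway, had 3.58, 2.17 and 1.498 CPM in RSAD2-positive and 53.7, 19.2 and 26.6 CPM in RSAD2-negative libraries (log2 fold change -3.70 ± 0.67). With every RSAD2-positive library under 5 CPM, STK38 met the limit on level through the RSAD2-negative libraries alone, which set its direction. SLC30A4, a zinc transporter, had 937, 860 and 836 CPM in RSAD2-positive libraries, 1313, 1595 and 1295 CPM in RSAD2-negative libraries and 1498, 1530 and 1964 CPM in control libraries. Its log2 fold change was -0.63 ± 0.11, and the edgeR adjusted p was 1 for all 5 genes. The log2 fold change of SLC30A4 was -0.10 with positive cells from 5 RSAD2 reads, -1.13 without the cell richest in RSAD2 of each batch and -2.03 with equal weight per cell, and 1 cell held 70.7% of the batch 1 positive reads. SLC30A4 was the most abundant and was read in 27 of 27 positive and 110 of 111 negative cells, with medians of 231 CPM per cell in positive and 1163 CPM in negative cells.

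Cell cycle, p53 and androgen genes had no call between the groups. The S phase list had a median log2 fold change of -0.15 over 23 genes, with PCNA at 0.40 ± 0.18 and RRM1 at 0.37 ± 0.28. Its batches disagreed, with median differences in log2(CPM + 1) of 0.05, -1.55 and 0.73 in batches 1, 2 and 3. The G2 and M phase list had a median log2 fold change of -0.70 over 22 genes. Its batches disagreed too, with median differences in log2(CPM + 1) of 1.38, -3.17 and -0.16. CDK1, the mitotic kinase, had 378, 6.96 and 349 CPM in RSAD2-positive and 158, 105 and 97.0 CPM in RSAD2-negative libraries, and CCNB1, its cyclin, had 429, 116 and 65.8 CPM in RSAD2-positive and 209, 163 and 199 CPM in RSAD2-negative libraries. The p53 targets had a median of -0.17 over 20 genes, with CCNG1 at -0.16 ± 0.22 and TP53INP1 at -0.13 ± 0.32. Their median differences in log2(CPM + 1) were -0.43, 0.39 and -0.44 in batches 1, 2 and 3. The androgen response genes had a median of -0.24 over 16 genes, with STEAP2 at -0.09 ± 0.11. For the stress genes the medians were 0.22 (unfolded protein and integrated stress response, 15 genes; HSP90B1 0.41 ± 0.12, PSAT1 0.33 ± 0.25) and -0.13 (immediate early and heat shock, 11 genes; FOS 0.04 ± 0.18, EGR1 -0.43 ± 0.43). Cholesterol genes had a median of -0.25 over 16 genes (FDFT1 -0.24 ± 0.19), mitochondrially encoded genes one of -0.19 over 13, ribosomal protein genes one of 0.09 over 33 and luminal markers one of -0.13 over 9. No gene of these lists passed (edgeR adjusted p = 1 for each gene named).

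The RSAD2-negative cells were themselves compared with control cells. In edgeR with batch as a block, 0 of 19343 genes were called higher (0%) and 0 lower (0%), 2222 had an unadjusted p under 0.05 (11.5%; 930 higher, 4.81%, and 1292 lower, 6.68%), and without the block 15 were higher (0.0775%) and 42 lower (0.217%). DESeq2 called 1516 genes (7.84%), 561 higher (2.9%) and 955 lower (4.94%), and the libraries did not overlap for 1959 genes higher (10.1%) and 1851 lower (9.57%). Without the block, the genes called higher included IFIT2, IFIT1, IFI6, IFITM1, PLAAT4, BIRC3, NFKBIA and TP53INP1. IFI6 had a log2 fold change, RSAD2-negative over control, of 4.30 ± 0.40 (edgeR adjusted p = 0.103 with the block and 0.025 without), and IFITM1 one of 3.97 ± 0.36 (0.103 and 0.0285). BIRC3 had one of 3.55 ± 0.28 (0.0909 and 0.0285), IFIT2 one of 3.06 ± 0.39 (0.130 and 0.0435) and ISG15 one of 2.16 ± 0.24 (0.106 and 0.0796). HERC5 and ZC3HAV1 had log2 fold changes of 0.12 ± 0.67 and 0.13 ± 0.13. Of 31 ISGF3-type genes tested, 16 were higher in DESeq2 and 0 lower, with a median of 1.495. Of the 22 G2 and M phase genes 21 were lower in DESeq2 (median -2.06), with CDK1 at -2.33 ± 0.23, and of 24 S phase genes 18 were lower (median -1.30). Of the 20 p53 targets 13 were higher in DESeq2 (median 0.98), and of 16 androgen response genes 10 were lower (median -1.02). This comparison shares the RSAD2-negative libraries with the one above.

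A read of these genes was common in RSAD2-negative cells. IFIT2 was read in 96.3 ± 6.42% of RSAD2-positive, 93.4 ± 6.09% of RSAD2-negative and 11.3 ± 3.91% of control cells (SD over 3 batches; positive against negative, exact permutation p = 0.70). OASL was read in 75.9 ± 28.5% of RSAD2-positive and 50.1 ± 21.7% of RSAD2-negative cells (exact permutation p = 0.30, n = 3 batches), against 1 of 209 control cells. With each cell thinned to 100000 reads, OASL was left in 44.4% of RSAD2-positive and 8.03% of RSAD2-negative cells, and IFIT2 in 88.9% and 65.7%. IFIT3 was read in 96.3 ± 6.42% of RSAD2-positive and 76.0 ± 11.1% of RSAD2-negative cells, and HERC5 in 61.1 ± 9.62% and 32.9 ± 13.7% (exact permutation p = 0.10 for both, n = 3, the smallest it can give). Shares of RIGI (90.7 and 86.2%), IFIT1 (77.8 and 82.9%) and ISG15 (100% and 97.1%) differed by less in percentage points between RSAD2-positive and RSAD2-negative cells. For ISG15 the exact permutation p was also 0.10, and for RIGI and IFIT1 it was 0.60. This test regrouped the values across batches and did not use their pairing. With the groups exchanged only within batches, the exact permutation p was 0.25 for IFIT3, HERC5, ISG15 and OASL, the smallest that form can give. In that form it was 0.50 for IFIT2 and IFIT1 and 0.75 for RIGI.

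The genes most like RSAD2 over the non-producing knockdown cells were found by Spearman's rho of log2(CPM + 1), averaged over batches, among 10492 genes averaging at least 5 CPM; cells of a batch share plates, most cells are tied at 0 for RSAD2, so a high rho is close to a difference between the groups, and the values are a description. The 10 were ZNFX1, RHEBL1, IFIT3, RANBP3L, OASL, EHD4, TM4SF18-AS1, SMARCD2, HERC5 and IFI44, with a mean rho of 0.35 to 0.31. OASL and TM4SF18-AS1, under 5 CPM in every RSAD2-negative library, met the limit on level through the RSAD2-positive libraries. ZNFX1, an antiviral helicase, led with rho of 0.35, 0.41 and 0.31 in the 3 batches. It had 273, 561 and 82.1 CPM in RSAD2-positive and 65.7, 45.2 and 31.9 CPM in RSAD2-negative libraries. EHD4, a membrane-trafficking ATPase, had rho of 0.63, -0.01 and 0.34, so its rank rested on batches 1 and 3.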

How the data were processed

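Gene counts of single LNCaP cells were analysed. The deposited counts are whole reads per gene and cell, not normalized and without molecular identifiers; per the labels' protocols, capture sites with more than 1 cell were excluded by eye, and no doublet caller was run. The submitters' processing notes name GRCh38.p3 and the tools HTSeq 0.6.1, TopHat2 2.1.0, edgeR 3.2.2 and FastQC 0.11.3, without an order; the sources used here give neither annotation release nor strand setting. The table held 36135 genes, 34891 of them named through a gene name table and 257 through GENCODE 29, whose GRCh38 coordinates are given; 987 have no name. Not used were 4 value columns that no label of a single cell names.

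The members, lists and tests were chosen with earlier results of these data known. Counts were summed per cell group and batch and fitted with edgeR 4.0.16 (R 4.3.3; filterByExpr, TMM, robust quasi-likelihood F-test, batch as a block, RSAD2 left out; threshold 0.05). Levels in CPM were computed from the summed counts. Batch pairs the libraries by the labels; deviations of same-batch libraries correlated at 0.07, 0.03 and 0.01. Alternatives used DESeq2 1.42.0, limma 3.58.1, other filters and scalings, thinned cells and other cell rules. Exact permutation tests used Python 3.11.15 with numpy 2.4.6, and Clopper-Pearson intervals scipy 1.17.1. The edgeR script was tested on simulated data. Genes named were the 5 with the smallest p in each direction (at least 5 CPM on average, the same direction in 3 batches, a read in at least 3 cells of the higher group in every batch), the 2 most abundant members of lists with no call, left out here for check lists of markers, mitochondrial and ribosomal genes, and the 10 most like RSAD2; others are said to be chosen later, and a few genes the rule gave are not reported here. Of 392 list symbols 10 were not used. Of 13 genes looked up, 11 matched a RefSeq promoter window; 10 of these matched a GENCODE transcript just after the start on the gene's strand.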

Additional observations from a re-analysis of the deposited data

How the results depend on the processing

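The number of genes called, RSAD2-positive against RSAD2-negative (0), was 178 in DESeq2, 3 with no filter on low counts, 6 with cells thinned to 100000 reads, 7 with cells thinned and regrouped, 3 with positive cells from 5 RSAD2 reads and 1 with the control libraries in the fit. Leaving out 1 batch gave 0 to 2 (2 without batch 2). It was 0 without the replicate block, with RLE size factors, equal weight per cell, depth matching, or without high-mitochondrial cells, resequenced cells or the cell richest in RSAD2 of each batch. For RSAD2-negative against control cells (0), it was 57 without the replicate block, 1516 in DESeq2, 19 with no filter and 140 with thinned cells. The cause of these differences was not tested. Between RSAD2-positive and RSAD2-negative libraries, the genes called with no filter were RIGI, OASL and IFIT2. Thinned cells gave these genes with HERC5, IFIT3 and TM4SF18-AS1. Cells thinned and regrouped gave genes including HERC5, PLAAT4, B2M, RIGI and ISG15. Without batch 2 the genes called were OASL and IFIT2, and with the control libraries in the fit it was IFIT2. Of 1115 recomputed log2 fold changes, 89 had the other sign; none of these had passed. The median of all genes was -0.69 with no filter, -0.01 with equal weight per cell, 0.002 with depth matching and 0.02 without the replicate block, against -0.19.
With exactly 1 RSAD2 read (added after seeing the data) they were RIGI -0.98, IFIT2 -0.49, HERC5 -0.86, IFIT3 -0.43, IFIT1 -2.46, ISG15 -0.79, CXCL16 -2.86, ADAR -0.29, STAT3 -0.61, STAT2 0.20, PARP9 -0.47, GBP1 -2.53, GBP3 -4.80, RAET1L -1.06, BIRC3 -1.96, NFKBIA -1.07, PMAIP1 -1.19, TNFRSF10B -0.41, CCNG1 0.10, RRM1 -0.51, CCNB1 0.15, PSAT1 -0.90, FOS -0.98, ZNFX1 -0.16, RANBP3L -3.50, APOL2 -0.06, IFI6 -0.68, IFITM1 -2.64, MX1 -3.29 and OAS1 -0.54. From 5 reads they were STAT2 0.21, GBP1 -0.25, TP53INP1 0.09, PCNA -1.60, RRM1 -1.19, CDK1 -3.76, STEAP2 0.37, FDFT1 0.05 and IFITM1 -0.30. There the mitochondrial share was 3.63 percentage points higher in positive cells, as an average of batch medians in which batch 3 had 2 positive cells (5.31% and 28.9%). With depth matching they were CXCL16 -0.03, ADAR -0.005, STAT3 -0.11, PARP9 -0.21, NFKBIA -0.10 and TNFRSF10B -0.18. With cells thinned and regrouped they were CXCL16 -0.19, STAT2 0.06, PARP9 -0.04, GBP1 -3.11, RAET1L -0.01, BIRC3 -0.01, NFKBIA -0.28, TNFRSF10B -0.23, PCNA -0.04, CDK1 -0.47, STEAP2 0.04, PSAT1 -0.59, FDFT1 0.28, EHD4 -0.62 and CXCL10 0.05. With thinned cells they were FOS -0.04 and IFITM1 -0.03, and with equal weight per cell CXCL16 -0.03, ULBP2 0.24, NFKBIA -0.15, CCNB1 0.97 and FOS -0.45. Without the replicate block they were STAT2 0.13 and CCNB1 0.12, and without the cell richest in RSAD2 of each batch PARP9 -0.10, NFKBIA -0.23 and FOS -0.28.
Leaving out 1 batch in turn gave ranges across 0 for CXCL16 (-0.10 to 0.28), CXCL11 (-1.62 to 4.12), STAT3 (-0.07 to 0.62), STAT2 (-0.36 to 0.21), PARP9 (-0.63 to 0.84), CCNG1 (-0.42 to 0.08), TP53INP1 (-0.54 to 0.27), CCNB1 (-0.98 to 0.31), CDK1 (-1.20 to 1.56), FOS (-0.12 to 0.21), EGR1 (-0.93 to 0.08), RANBP3L (-0.51 to 2.11), IFITM1 (-0.79 to 0.98) and, RSAD2-negative over control, HERC5 (-0.56 to 0.73). The differences of RSAD2-positive minus RSAD2-negative cells ranged from -34221.5 to 124480 reads, -371.5 to 138.75 genes and -0.880 to 0.144 percentage points of mitochondrial reads. The difference in the share of cells with a read ranged from -1.03 to 12.3 percentage points for RIGI, and that of IFIT1 was 15.1 points with 5 reads as detection and 14.6 with thinned cells, against a lower share in positive cells as reported. Each batch held 6 to 12 positive cells, which limits the precision; amplified reads are not independent molecules.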
